A study of Arabidopsis thaliana with 6 samples.

Results

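The late genes of proanthocyanidin formation were followed in whole seeds of Arabidopsis thaliana, sampled 8 days after pollination. Proanthocyanidins, or condensed tannins, are the flavonoid polymers that turn the seed coat brown. The 9 genes were chosen by locus number as the late enzymes and the transport and oxidation genes of the route. They are TT3 (AT5G42800), LDOX (AT4G22880), BAN (AT1G61720), TT19 (AT5G17220), TT12 (AT3G59030), AHA10 (AT1G17260), TT9 (AT3G28430), TT15 (AT1G43620) and TT10 (AT5G48100), and each was found among the 16967 genes of the table. The samples were 3 of tt7-7, a mutant of TT7 (flavonoid 3'-hydroxylase) that the labels place in the Col-0 accession, and 3 of wild type Col-0. Nothing in the labels says which plants or harvests the samples came from, what lesion tt7-7 carries, or how much it leaves of the gene's function. The p-values given here therefore measure the spread between these samples, which may be technical in part.

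Proanthocyanidins are made in the endothelium, the innermost layer of the seed coat. In the late part of the route TT3 (dihydroflavonol 4-reductase) makes leucoanthocyanidins, LDOX (leucoanthocyanidin dioxygenase) turns them into anthocyanidins, and BAN (anthocyanidin reductase) turns those into flavan-3-ols. TT19, a glutathione S-transferase, TT12, a transporter of the vacuole membrane, and AHA10, a proton pump, bring the products into the vacuole. TT10, a laccase, oxidises them, which browns the coat. TT15, a sterol glucosyltransferase, and TT9, a membrane trafficking protein, were found through mutants with pale seeds and are not enzymes of the flavonoid route. The genes TT3, LDOX, BAN, TT12, TT19 and AHA10 are known targets of the complex of the MYB protein TT2, the bHLH protein TT8 and the WD40 protein TTG1. TT7 itself acts upstream of TT3, where it adds a hydroxyl group to the B ring.

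The 250 bases before the annotated start of 5 of the genes are shown because 4 of them changed together between the genotypes and the last, TT10, did not pass the test. They were read from the RefSeq sequence and annotation of TAIR10.1, by locus number and in the direction of the gene. The processing notes name TAIR10, and the transcript lengths of the RefSeq annotation gave whole reads for 99.3% of the genes of the table. The windows lie at chr5:17166033-17166282 (minus strand) for TT3, chr4:12006210-12006459 (minus strand) for LDOX, chr1:22792804-22793053 (minus strand) for BAN, chr1:5903808-5904057 (plus strand) for AHA10 and chr5:19492745-19492994 (minus strand) for TT10. Capitals mark matches to the E-box CANNTG, the core read by many bHLH proteins.
TT3: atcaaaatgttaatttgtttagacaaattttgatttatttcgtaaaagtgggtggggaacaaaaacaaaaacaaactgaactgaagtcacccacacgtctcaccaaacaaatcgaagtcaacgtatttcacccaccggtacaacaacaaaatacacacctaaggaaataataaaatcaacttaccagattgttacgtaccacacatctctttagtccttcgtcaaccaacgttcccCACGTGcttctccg
LDOX: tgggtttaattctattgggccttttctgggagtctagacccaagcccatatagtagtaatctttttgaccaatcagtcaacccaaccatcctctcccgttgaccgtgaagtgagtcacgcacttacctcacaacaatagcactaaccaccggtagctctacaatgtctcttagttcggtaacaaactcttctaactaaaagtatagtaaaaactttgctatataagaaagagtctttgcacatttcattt
BAN: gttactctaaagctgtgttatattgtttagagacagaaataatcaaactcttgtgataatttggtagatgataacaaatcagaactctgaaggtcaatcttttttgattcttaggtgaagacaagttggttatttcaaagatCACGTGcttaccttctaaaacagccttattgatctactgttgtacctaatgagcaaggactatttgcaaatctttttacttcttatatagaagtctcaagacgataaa
AHA10: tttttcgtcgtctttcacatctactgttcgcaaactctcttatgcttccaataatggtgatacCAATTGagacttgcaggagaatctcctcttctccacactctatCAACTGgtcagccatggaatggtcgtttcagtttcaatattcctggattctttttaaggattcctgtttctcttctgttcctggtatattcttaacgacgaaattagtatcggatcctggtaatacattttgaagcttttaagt
TT10: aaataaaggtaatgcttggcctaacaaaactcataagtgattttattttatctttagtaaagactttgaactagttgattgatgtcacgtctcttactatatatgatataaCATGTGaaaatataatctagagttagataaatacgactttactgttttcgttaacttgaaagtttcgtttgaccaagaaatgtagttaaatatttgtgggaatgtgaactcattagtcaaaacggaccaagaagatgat

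Matches were searched on both strands. An E-box lay in the windows of 6 of the 9 genes, against 55.3% of the 27443 windows before nuclear protein-coding genes, so the share among the 9 was close to that of all genes. The G-box form CACGTG stood before TT3 and BAN, or 2 of the 9, against 6.49% of all windows. In TT3 it lay 14 to 9 bases before the start, and in BAN 108 to 103 bases before it. The MYB core CNGTTA or CNGTTG, which can overlap an E-box as in AHA10 and TT9, was found before 6 of the 9 and before 40.7% of all genes. No window of the 9 held the AC element ACCAACC or ACCTAAC, against 5.07% of all windows. These matches are a description of letters in short windows and do not show binding.

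Levels are RPKM, reads scaled by the length of the transcript and by the reads of the library, which allows genes to be compared per length. Libraries held 13677094 to 20547689 reads, as recovered from the RPKM steps, and the 9 genes had between 54 and 26470 reads per library. The test was limma on log2(RPKM + 1), with Benjamini-Hochberg adjustment of p-values across all 16663 genes whose mean reached 2 RPKM and a threshold of 0.05. Fold changes are tt7-7 minus Col-0 on that scale, which understates the change of genes at low RPKM. Their median over all tested genes was 0.44 and not 0, so changes are read against that value. TT7 was at 86.0, 97.4 and 103 RPKM in tt7-7, against 499, 272 and 239.9 RPKM in Col-0, with a log2 fold change of -1.74 (SE 0.256, limma adjusted p = 0.000527).

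Markers of other seed tissues were read beside the 9 genes, and over all tested genes 51.1% were called higher and 8.47% lower in tt7-7. All 9 embryo storage and oil body markers were lower in tt7-7, with a summed level of 915 to 6030 RPKM in tt7-7 and of 19865 to 127376 RPKM in Col-0. All 6 light-harvesting markers were also lower, summing to 4002 to 5484 RPKM in tt7-7 and 9994 to 12551 RPKM in Col-0. Of 8 markers of the outer seed coat 3 were higher, and 0 lower, and the sums overlapped, at 1638 to 1999.8 RPKM in tt7-7 and 1542 to 2243 RPKM in Col-0. Of 6 endosperm markers 4 were in the table and 2 were higher, while MEA and AGL62 were not analysed here. The 2 were FIS2 and FWA, which went down to 0.770 and 1.60 RPKM in Col-0. The Col-0 mean of FIS2, 1.27 RPKM, was under the filter of 2 RPKM, and FWA lost its call with voom and under quantile normalization. The sums were 420.3 to 1145 RPKM in tt7-7 and 507 to 892 RPKM in Col-0. Most of each sum was EPR1, at 393 to 1130 RPKM in tt7-7 and 492 to 887 RPKM in Col-0. Under median-ratio scaling 1 of the 8 outer seed coat markers was higher and 3 were lower. Of the 16663 tested genes 4476 were higher and 4469 lower under that scaling. Under quantile normalization 3 of the 6 light-harvesting markers were lower, as were 3576 of the 16663 tested genes. No marker in the table was at 0 in any library. In whole seeds, fewer cells of a type and less RNA per cell cannot be told apart, and the part these tissues had in the results was not tested.

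The 3 late enzymes were all higher in tt7-7 seeds. TT3 stood at 583, 483 and 380.3 RPKM in tt7-7, against 193, 71.3 and 45.9 RPKM in Col-0. Every tt7-7 sample lay above every Col-0 sample, and Col-0 replicate 1 was the highest of its group. The means were 482 ± 101 RPKM in tt7-7 and 103 ± 78.6 RPKM in Col-0 (SD, n = 3 each), a log2 fold change of 2.45 (SE 0.439, limma adjusted p = 0.00135). LDOX was at 452, 426 and 379.9 RPKM in tt7-7, against 201, 82.2 and 43.0 RPKM in Col-0. The tt7-7 samples were close to each other and the Col-0 samples were spread 4.68-fold. Its log2 fold change was 2.21 (SE 0.445, limma adjusted p = 0.00247). BAN, which commits anthocyanidins to proanthocyanidins and not to anthocyanins, was at 427, 397 and 285 RPKM in tt7-7, against 127, 67.3 and 39.8 RPKM in Col-0. The groups were again apart, with the lowest tt7-7 sample 2.24-fold above the highest Col-0 sample. The log2 fold change of BAN was 2.36 (SE 0.361, limma adjusted p = 0.000622).

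**Figure D1:**
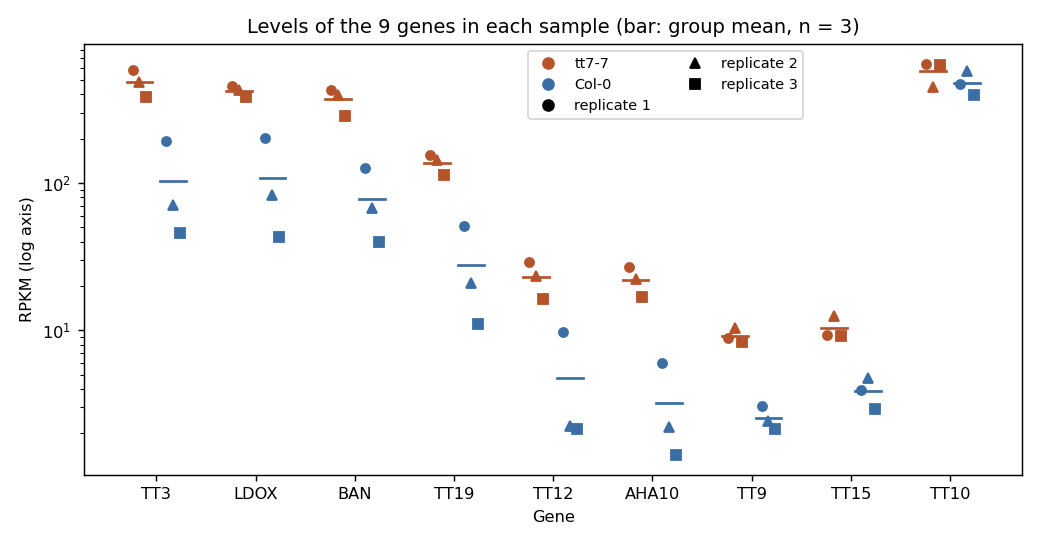
RPKM (log axis) of the 9 genes in the 3 tt7-7 and 3 Col-0 samples, with a marker shape per replicate number and a bar at each group mean. For 8 genes the lowest tt7-7 sample lies above the highest Col-0 sample, as for 56.2% of all tested genes, while for TT10 the groups overlap.

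The 3 genes of vacuolar import rose with the enzymes. TT19 stood at 155, 143 and 114 RPKM in tt7-7, against 50.8, 20.8 and 11.1 RPKM in Col-0. Its groups were separated by 2.23-fold between the lowest tt7-7 and the highest Col-0 sample, and its log2 fold change was 2.52 (SE 0.430, limma adjusted p = 0.00107). TT12, the transporter, was at 29.2, 23.5 and 16.3 RPKM in tt7-7, against 9.73, 2.24 and 2.15 RPKM in Col-0. Col-0 replicates 2 and 3 were nearly equal, at 54 and 73 reads, and replicate 1 stood above them. The log2 fold change of TT12 was 2.29 (SE 0.433, limma adjusted p = 0.00181). AHA10, the pump whose proton gradient drives such transport, was at 26.7, 22.2 and 16.8 RPKM in tt7-7, against 5.96, 2.21 and 1.42 RPKM in Col-0. The log2 fold change of AHA10 was 2.58 (SE 0.348, limma adjusted p = 0.000350), and the ratio of its mean RPKM was 6.86. It was the highest of the 9 log2 fold changes on the deposited scale, but lay below TT3 and others under quantile normalization (2.06 against 2.68) and below TT19 and others with the length trend removed (2.28 against 2.81), and below TT19 in some fits with a single sample left out.

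AHA10 went below 2 RPKM in Col-0, whereas the other 8 genes were above 2 RPKM in all 3 samples of either genotype. The name of the deposited table gives a minimum of 2 RPKM, and how that minimum was applied is not stated. Annotated ends of TT19 and TT12 share 108 and 92 bases with genes on the other strand, and no source used here says whether the counting used strand. The partner of TT19 was PSY (phytoene synthase, AT5G17230), at 38.9, 46.5 and 56.3 RPKM in tt7-7 and 47.6, 37.5 and 44.1 RPKM in Col-0. The partner of TT12 was AT3G59040, at 9.25, 9.46 and 15.2 RPKM in tt7-7 and 8.84, 8.51 and 7.61 RPKM in Col-0. Neither partner passed the limma test, with log2 fold changes of 0.12 for PSY (adjusted p = 0.550) and 0.37 for AT3G59040 (adjusted p = 0.121).

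TT9 and TT15, the genes outside the flavonoid route itself, rose by less and varied less within Col-0. TT9 was at 8.91, 10.4 and 8.32 RPKM in tt7-7, against 3.04, 2.43 and 2.14 RPKM in Col-0. Both groups were tight and did not overlap, and the log2 fold change was 1.53 (SE 0.154, limma adjusted p = 0.000126). TT15 stood at 9.30, 12.4 and 9.17 RPKM in tt7-7, against 3.96, 4.78 and 2.92 RPKM in Col-0. Its groups were also apart, with a log2 fold change of 1.22 (SE 0.185, limma adjusted p = 0.000615). The Col-0 coefficient of variation was 18.3% for TT9 and 23.9% for TT15, against 57.2% to 92.5% for the 3 enzymes and the 3 import genes. Within tt7-7 it was 11.4% for TT9 and 18.0% for TT15, inside the 8.75% to 28.1% of those 6 genes.

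TT10 was the exception. The laccase was at 645, 444 and 632 RPKM in tt7-7, against 468, 572 and 392 RPKM in Col-0. The groups overlapped, since tt7-7 replicate 2 lay below Col-0 replicates 1 and 2. The log2 fold change was 0.26 with a 95% interval of -0.23 to 0.75, and the limma adjusted p of 0.319 did not pass. TT10 lay at -0.24 under median-ratio scaling and -0.22 with voom, and it was called higher under quantile normalization alone, at 0.73 (limma adjusted p = 0.0111). In Col-0 TT10 was the most abundant of the 9 genes, at 478 ± 90.3 RPKM (SD, n = 3), above LDOX in every sample without overlap of their ranges. In tt7-7 it averaged 574 ± 112 RPKM (SD, n = 3), and the ranges of TT10 and TT3 overlapped there.

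Over the 9 genes, 8 were called higher and 0 lower in tt7-7, where 51.1% of all tested genes were called higher and 8.47% lower, or 59.6% in either direction. A call alone thus said little in this comparison, and the sizes of the changes said more. The median log2 fold change was 2.29 for the 9 genes and 0.44 for all tested genes. The 6 enzyme and import genes lay above 2, which 1.26% of the tested genes did, and their ranks from the top among 16663 genes were 46 for AHA10, 56 for TT19, 69 for TT3, 85 for BAN, 95 for TT12 and 122 for LDOX. TT9 ranked 736, TT15 ranked 1731 and TT10 ranked 10256. The groups did not overlap for 8 of the 9, as for 66.2% of all tested genes, and 56.2% had tt7-7 above Col-0. An exact two-sided permutation test gave 0.1 for those 8 genes, which is as low as 3 against 3 samples can go, and 0.3 for TT10.

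**Figure D2:**
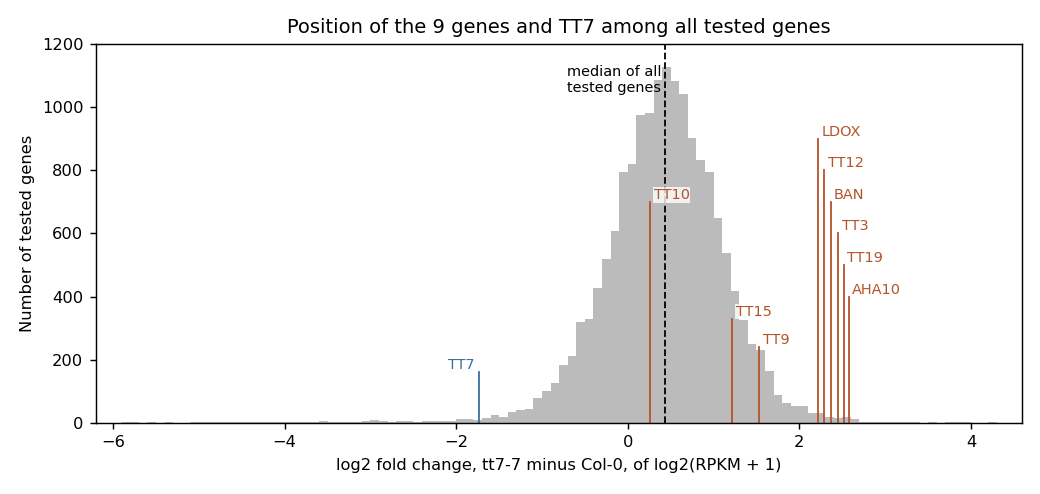
Number of tested genes by log2 fold change, tt7-7 minus Col-0, in bins of 0.1, with the 9 genes and TT7 marked and a dashed line at the median of all tested genes, 0.44. The 6 enzyme and import genes stand between 2.21 and 2.58 in the right tail, TT15 at 1.22 and TT9 at 1.53 within the upper flank, TT10 at 0.26 near the median and TT7 at -1.74 on the other side.

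The scaling between samples moved all genes more than it moved the calls of these 8. Median-ratio scaling brought the median of all tested genes to -0.016, and there 26.9% of the genes were called higher. Under it TT3 stood at 1.95, LDOX at 1.71, BAN at 1.86, TT19 at 2.03, TT12 at 1.86 and AHA10 at 2.16, with TT9 at 1.12 and TT15 at 0.78. With voom on the recovered reads, where 28.1% of genes were called higher, the same 8 were again called, and TT15 had the smallest of their changes at 0.96. The 8 genes were called higher in each of the 15 alternatives run, with a highest limma adjusted p of 0.0146. Without Col-0 replicate 1, the highest of its group, the log2 fold change was 3.03 for TT3, 2.79 for LDOX, 3.08 for TT19 and 2.87 for TT12. Without Col-0 replicate 3, the lowest, it was 2.01 for TT3, 1.69 for LDOX, 2.03 for TT19 and 1.99 for TT12.

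**Figure D3:**
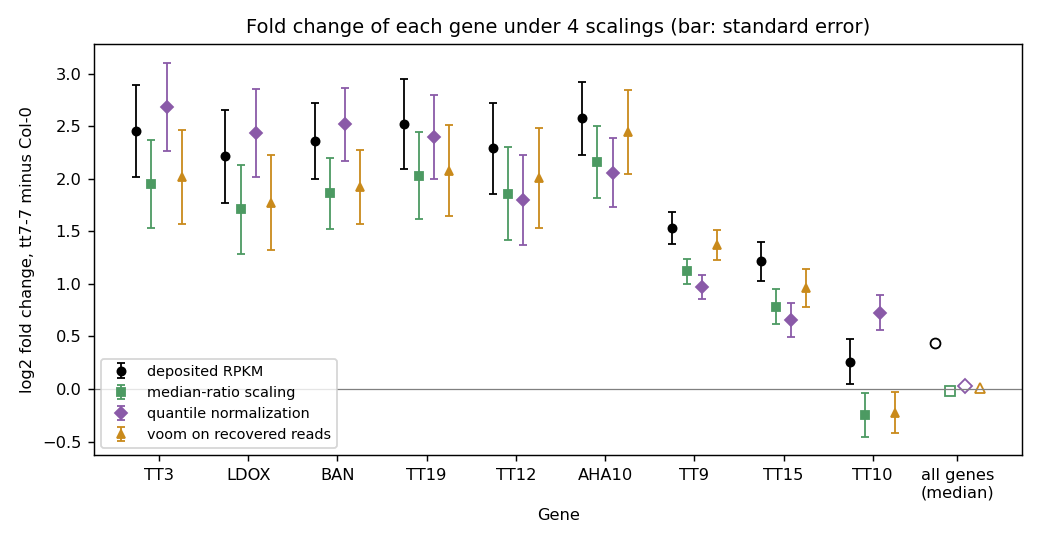
Log2 fold change, tt7-7 minus Col-0, of each gene with its standard error (n = 3 per genotype) on the deposited RPKM, under median-ratio scaling, under quantile normalization and with voom on recovered reads, with the median of all tested genes as open symbols at the right. The 6 enzyme and import genes lie between 1.71 (LDOX, median-ratio scaling) and 2.68 (TT3, quantile normalization), and TT10 changes sign.

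Ratios between genes within a sample were taken as differences of log2(RPKM + 1), and 6 were compared. Without the added 1 they would not depend on the scaling between samples. The effect of the added 1 is largest for genes at low RPKM. The log2 ratio of BAN to LDOX was -0.20 ± 0.18 in tt7-7 and -0.35 ± 0.28 in Col-0 (SD, n = 3 each). Its groups overlapped, and the difference of 0.15 had an exact p of 0.5 by two-sided permutation (0.6 after Benjamini-Hochberg adjustment over the 6 ratios). BAN to TT3 differed by -0.089 (exact p = 0.6, adjusted 0.6), TT3 to LDOX by 0.24 (exact p = 0.2, adjusted 0.4) and AHA10 to TT12 by 0.29 (exact p = 0.3, adjusted 0.45), with overlapping groups each time. These differences were within the spread between samples, which with 3 samples a group does not show that the ratios were equal. The ratio of TT19 to LDOX was -1.54, -1.56 and -1.73 in tt7-7 and -1.96, -1.93 and -1.86 in Col-0, on the log2 scale. All tt7-7 samples were higher, by 0.31 on average, with an exact p of 0.1 that became 0.3 after adjustment. TT10 to BAN was 0.60, 0.16 and 1.15 in tt7-7 and 1.87, 3.07 and 3.27 in Col-0, so that the laccase stood well above the reductase in every Col-0 sample and by less in every tt7-7 sample. That difference was -2.101, again with an exact p of 0.1 and an adjusted value of 0.3, neither of which can pass 0.05 in this design.

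The order of levels was similar in the genotypes. TT10, TT3, LDOX and BAN were the most abundant, TT19 followed, and TT12, AHA10, TT15 and TT9 were the lowest. In tt7-7 BAN lay above TT19, TT19 above TT12 and AHA10 above TT15 without overlap, while neighbours among TT10, TT3, LDOX and BAN overlapped. In Col-0 the ranges overlapped from LDOX through TT3 and BAN to TT19 and again among the 4 lowest genes, and TT19 lay above TT12 without overlap.

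Of the 9 genes, the 6 that differed most between the genotypes also differed most between Col-0 replicates 1 and 3. On the log2(RPKM + 1) scale Col-0 replicate 1 was above replicate 3 by 2.20 for LDOX, 2.0999 for TT19, 2.05 for TT3, 1.77 for TT12, 1.65 for BAN and 1.52 for AHA10. Among the 16663 tested genes these differences ranked 2, 4, 7, 13, 18 and 32 from the top, where the median gene differed by 0.26. TT9 at 0.37, TT15 at 0.34 and TT10 at 0.25 were near that median. Col-0 replicate 3 was the lowest of its group for all 9 genes, as it was for 63.7% of all tested genes, and replicate 1 the highest for 7, as for 62.2% of them. Within tt7-7 the 6 genes were lowest in replicate 3 and highest in replicate 1, but by less. The differences were 0.25 for LDOX to 0.80 for TT12, with a median gene at -0.023. Over all tested genes 34.6% were lowest in tt7-7 replicate 3 and 27.3% highest in tt7-7 replicate 1. These comparisons of single samples were chosen after the values were seen and were not tested.

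Storage and oil body transcripts took the opposite places within Col-0. Their 9 markers held 0.391%, 0.0883% and 0.597% of the reads in tt7-7 replicates 1 to 3, against 1.96%, 4.16% and 13.5% in Col-0 replicates 1 to 3. In Col-0 the sample with the smallest share had the highest levels of the 6 genes, and the sample with the largest share the lowest. In tt7-7 the smallest share was that of replicate 2, whereas the 6 genes were highest in replicate 1. Every Col-0 library had a larger share than every tt7-7 library, so the part of storage transcripts in the difference between genotypes was not tested. With the storage reads taken out of the library totals, an alternative chosen after the data were seen, the 8 genes were still called higher. So were 8049 of the 16663 tested genes, and the median log2 fold change over all tested genes was 0.35. In this alternative the log2 fold change was 2.36 for TT3, 2.12 for LDOX, 2.27 for BAN, 2.43 for TT19, 2.22 for TT12 and 2.52 for AHA10.

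**Figure D4:**
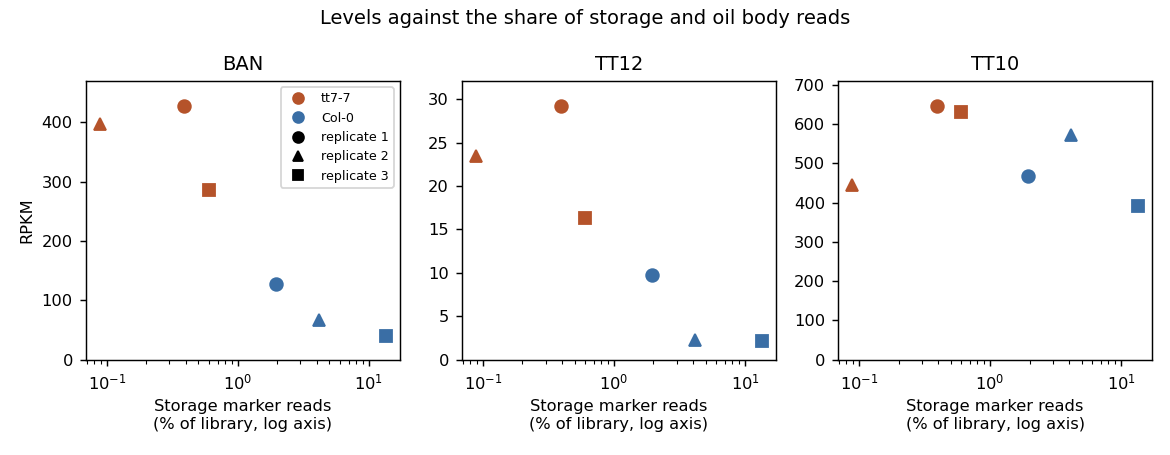
RPKM of BAN, TT12 and TT10 in the 6 samples against the percent of library reads from 9 storage and oil body markers (log axis). BAN and TT12 are lowest in the 3 Col-0 samples, at shares of 1.96% to 13.5%, and highest in tt7-7 replicate 1, at 0.391%, while TT10 has tt7-7 and Col-0 samples at like levels.

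The genes most like BAN were sought by the mean absolute difference, over the 6 samples, between log2(RPKM + 1) values centred on each gene's own mean. The nearest were AT5G55320 at 0.080, AT2G28625 at 0.088 and PLL1 (poltergeist like 1, AT2G35350) at 0.10. Their levels were far lower than that of BAN, with means of 26.5 RPKM in tt7-7 and 5.26 RPKM in Col-0 for AT5G55320, 19.5 and 3.01 RPKM for AT2G28625, and 25.6 and 5.20 RPKM for PLL1, in the same order. Among the other members AHA10 was the closest to BAN, at 0.12 and rank 9 of all tested genes, followed by TT19 at rank 11, TT3 at 15, LDOX at 19 and TT12 at 33. TT9 came at rank 717, TT15 at 2270 and TT10 at 10224. A pattern over 6 samples in 2 genotypes is shared by many genes, and nothing about function follows from it.

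Regulators of these genes were higher as well. Of 9 in the list 8 were tested and 8 were called higher, against 51.1% of all tested genes, with a median log2 fold change of 1.36, and MYB5 was not analysed here. TT2, the MYB protein of the activating complex, was at 31.3, 25.8 and 19.3 RPKM in tt7-7 and 7.90, 3.96 and 3.21 RPKM in Col-0, a log2 fold change of 2.19 (SE 0.279, limma adjusted p = 0.000272). Its groups did not overlap, and the lowest tt7-7 sample was above the highest Col-0 sample by 2.44-fold. TT8, the bHLH partner, was at 73.4, 47.9 and 52.1 RPKM in tt7-7 and 21.6, 23.1 and 11.6 RPKM in Col-0, with a log2 fold change of 1.61. TT16, a MADS protein needed for BAN expression in the endothelium, changed by 2.39, and TT1, a zinc finger protein of the same layer, by 2.32. TT16 and TT1 went below 2 RPKM in Col-0, to 1.26 and 0.892 RPKM. TTG1, the WD40 protein of the activating complex, changed by only 0.35, below the median of 0.44 over all tested genes, and EGL3 by 0.51. Under median-ratio scaling, quantile normalization and voom 6 of the 8 were called higher, the exceptions each time being TTG1 and EGL3. In that order 4476 and 4468 of 16663 and 4654 of 16553 tested genes were called higher. With single samples left out 6 to 7 of the 8 were called, where 7292 to 9100 of all tested genes were. TTG1 lost its call in 9 of the 15 alternatives and EGL3 in 8.

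**Figure D5:**
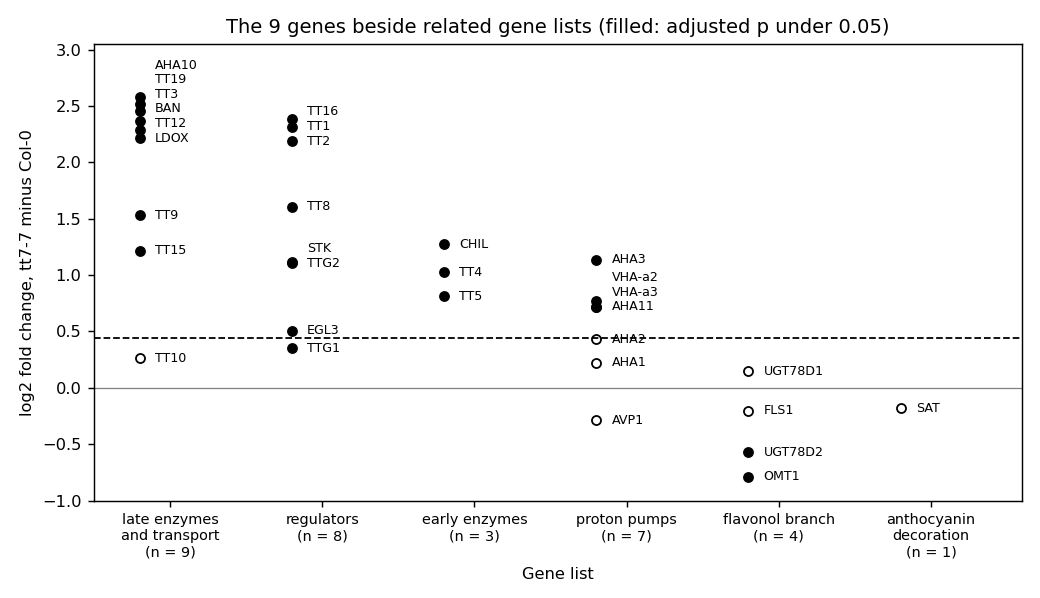
Log2 fold change, tt7-7 minus Col-0, of each tested gene of the late enzyme and transport group and of 5 related lists, filled where the limma adjusted p is under 0.05, with a dashed line at the median of all tested genes, 0.44. The late genes apart from TT10 and most regulators lie above the line, while the flavonol genes and the anthocyanin decoration gene lie below it.

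The early enzymes, which supply the substrates of TT3, were higher by less. Chalcone synthase TT4 changed by 1.02 (limma adjusted p = 0.0148), chalcone isomerase TT5 by 0.81 (adjusted p = 0.0484) and the isomerase-like CHIL by 1.27 (adjusted p = 0.00767), which made 3 of 3 tested called higher, where 51.1% of all tested genes were. TT6 was not analysed here. Under median-ratio scaling 0 of the 3 were called, and with voom only CHIL was. Over all tested genes 26.9% and 28.1% were called higher in these settings, in that order. TT4 was at 1564, 1299.96 and 834 RPKM in tt7-7 and 819, 549 and 448 RPKM in Col-0, and for TT5 the groups overlapped. TT4 lost its call with Col-0 replicate 3 left out (0.83) and with tt7-7 replicate 1 left out (0.83), and TT5 lost its call in 8 of the 15 alternatives.

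In the flavonol branch 4 of 5 genes were tested, with 0 higher and 2 lower, where 51.1% of all tested genes were higher and 8.47% lower, and the median was -0.39. No test compared this branch with the late genes. OMT1, a methyltransferase, changed by -0.79 (limma adjusted p = 0.00267) and UGT78D2, a glucosyltransferase, by -0.57 (limma adjusted p = 0.0192), though UGT78D2 lost its call when Col-0 replicate 3 (-0.51) or tt7-7 replicate 2 (-0.40) was left out. UGT78D2 was placed in the flavonol list only, and the list of anthocyanin decoration enzymes is not a full account of that branch. Of the 6 enzymes listed as decorating anthocyanins, the other fate of the product of LDOX, only SAT, named for that reason, was tested. It was at 10.07, 9.30 and 8.78 RPKM in tt7-7 and 14.2, 9.19 and 9.43 RPKM in Col-0, with a log2 fold change of -0.18 that did not pass (limma adjusted p = 0.401), and the other 5 were not analysed here. SAT was called lower under median-ratio scaling, quantile normalization and voom.

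Proton pumps related to AHA10 by family or membrane changed by less than AHA10 did. Of 7 tested 4 were higher and 0 lower on the deposited scale, a share near the 51.1% higher over all tested genes, with a median of 0.72 against 0.44. On that scale AHA3 changed by 1.14, the vacuolar subunits VHA-a2 and VHA-a3 by 0.77 and 0.72, and AHA11 by 0.72. Under median-ratio scaling AHA3 alone was called higher and AVP1, the vacuolar pyrophosphatase, was called lower, at -0.79. Of the 16663 tested genes 4476 were called higher and 4469 lower under that scaling. AVP1 was at 365, 333 and 316 RPKM in tt7-7 and 474, 396 and 372 RPKM in Col-0, with a log2 fold change of -0.29 that did not pass on the deposited scale (limma adjusted p = 0.156), and it is named after its values were seen.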

How the data were processed

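RNA-seq of 3 tt7-7 and 3 Col-0 seed samples was grouped by the genotype in the titles. The authors deposited RPKM values, with decimal commas, in a table whose name gives a minimum of 2 RPKM. Per the submitters' processing notes the tools were cutadapt, FastQC, HISAT2, HTSeq and DESeq2 and the build TAIR10, with no role, order or version. Which annotation and strand setting were used is not stated there or in the labels, which name no batch. Of the 16967 genes 16857 matched a RefSeq locus tag, and reads came out whole within 0.02 for 16855.

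RefSeq gave names, lengths and upstream sequence. limma (version 3.58.1, R 4.3.3) was fitted to log2(RPKM + 1) of all 6 samples with an intensity-dependent prior variance and no covariate. Before the fit 304 genes under a mean of 2 RPKM were left out. The code was also run on simulated data with few changed genes and no shift over all genes. That run cannot speak to the scaling of the samples used here. Python 3.11.15 did the rest. The 9 genes, the lists and the naming rule (the 9 genes, TT7, up to 4 called genes per list in order of p, and the 3 genes most like BAN) were chosen with earlier results of these data known. Alternatives were other pseudocounts, filters, scalings, voom with TMM factors on recovered reads (112 genes left out), a length trend, a block for replicate number, leaving out samples singly, and, chosen after seeing the data, storage reads out of the totals. Replicates differed by more than sampling noise, with a chi-square per degree of freedom of 22.4 to 163.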

Additional observations from a re-analysis of the deposited data

How the results depend on the processing

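The 8 calls among the late genes stayed under all 15 alternatives with 0 called lower, and quantile normalization called TT10 as well, for 9. The median of the 9 log2 fold changes ranged from 1.96 to 2.79 with single samples left out. Counts over all tested genes moved most. Calls higher and lower in tt7-7 numbered 8517 and 1412 on the deposited scale, 4654 and 4122 with voom, 4476 and 4469 with median-ratio scaling, 4468 and 3576 with quantile normalization. For these 3 the median log2 fold change was 0.010, -0.016 and 0.030 in that order. With single samples left out the counts over all genes were 7292 to 9100 and 1004 to 1483. Over the 5 related lists 15 genes were called higher and 2 lower. The higher calls were 9 with voom and 7 under median-ratio scaling, and the lower calls were 5 in each of these and 4 with the length trend removed. Leaving out single samples gave 11 to 15 higher and 1 to 2 lower, and the 1 was UGT78D2 losing its call.

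Signs turned mostly for changes that did not pass on the deposited scale. TT10 was at -0.22 with voom and -0.24 under median-ratio scaling. In the same order UGT78D1 was at -0.32 and -0.36, AHA1 at -0.25 and -0.28 and AHA2 at -0.032 and -0.066. With the length trend removed AHA1 was at -0.41 and AHA2 at -0.088. TTG1, called higher on the deposited scale, was at -0.12 with voom and -0.14 under median-ratio scaling, and EGL3, also called higher, at -0.067 under quantile normalization, where AVP1 was at 0.062. With single samples left out, SAT ranged from -0.28 to 0.0090, FLS1 from -0.44 to 0.020 and UGT78D1 from -0.0068 to 0.30. The cause was not tested. The ratio of BAN to LDOX ranged from -0.0044 to 0.27 with single samples left out and that of BAN to TT3 from -0.24 to 0.017. The ratio of AHA10 to TT12 was -0.069 with the length trend removed.

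The labels do not say that replicate numbers pair the samples, so the main fit had no block for them. Same-numbered samples of the genotypes did not deviate together in all pairs, with correlations across genes of 0.21, -0.19 and 0.48. Not every sample correlated best with its own number, and with 3 samples a group this cannot settle the pairing. The replicate block gave 8 members called higher, 8587 genes higher and 1583 lower. The standard error of TT3 was 0.247 with the block and 0.439 without it. Depth was least for TT12 in Col-0, at 54 reads in replicate 2.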
